A study of Mus musculus with 73 samples.

Results

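The integrated stress response and the unfolded protein response of the endoplasmic reticulum (ER) were followed through 10 genes in mouse embryonic stem (ES) cells with an edited X-inactivation centre. The genes were the transcription factors Atf4, Ddit3, Atf3 and Xbp1, the feedback gene Trib3, the metabolic genes Asns, Psat1, Phgdh and Chac1, and the ER chaperone gene Hspa5. They were picked by symbol from a table of 37310 genes listed by Ensembl identifier (ENSMUSG00000026628.8 for Atf3, ENSMUSG00000029752.6 for Asns), and all 10 were found and passed the filter on low counts. According to the gene models used for their promoters, they lie on chromosomes 1, 2, 3, 6, 10, 11, 15 and 19, so none is on the X chromosome that carries the edits.

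In this response, kinases that sense amino acid shortage, misfolded ER proteins, viral RNA or lack of haem phosphorylate the initiation factor eIF2. Bulk protein synthesis then falls while the Atf4 messenger is translated better, and ATF4 protein switches on genes for amino acid uptake and synthesis, for tRNA charging and for further regulators such as CHOP, the product of Ddit3. Hspa5 and Xbp1 belong mainly to the ER branches of the unfolded protein response, which respond to misfolded proteins through the sensors ATF6 and IRE1. Because ATF4 is controlled largely at translation and XBP1 by splicing, the level of their messengers is an incomplete reading of their activity.

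Polyadenylated RNA was sequenced from male ES cells of the line E14Tg2a (strain 129/Ola, XY), cultured feeder-free on gelatin with serum and leukemia inhibitory factor (LIF). One edited allele is named 40kb [Tsix-Xist] and the other 70kb [Xite-Jpx]; the labels speak of inversions and deletions made with CRISPR or TALENs without stating the kind of these alleles. For each allele 2 clones (2G1 and 3D5 for 40kb, 18C6 and 20E7 for 70kb) were sequenced with 2 replicates per clone, beside 2 unedited (WT) libraries that the labels assign to that allele. No source says that the replicates were separate cultures, so the p-values measure the spread between these libraries, which may be technical, and an allele effect rests on 2 clones.

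The 12 libraries held 34514493 to 46605508 counts, and levels are given in CPM, each gene's count relative to the TMM-scaled total of its library. Markers of naive ES cells were present throughout: the summed level of 10 such genes ran from 2738 to 5069 CPM, and none was at 0 in any library. That sum was 2738 and 3460 CPM in the WT libraries of the 40kb set and higher, at 4080 to 5069 CPM, in the 40kb libraries. In the 70kb set it was 3265 and 3875 CPM in WT and 3007 to 4315 CPM in the 70kb libraries. Markers of other cell types differed between the groups as well. The summed level of 28 fibroblast, smooth muscle and trophoblast genes was 743 and 984 CPM in the WT libraries of the 40kb set, 35.8 to 114 CPM in the 40kb libraries, 207 and 798 CPM in the WT libraries of the 70kb set and 146 to 1376 CPM in the 70kb libraries. Xist, the silencing RNA of the edited region, ran from 14.7 to 82.0 CPM in the 40kb libraries against 0.734 and 0.801 CPM in their WT libraries, and from 4.63 to 8.75 CPM in the 70kb libraries against 0.832 and 2.25 CPM.

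Promoter sequence was searched for exact matches to the elements through which ATF4 and the ER sensors are known to act. RefSeq promoter windows of 250 bases before and 50 bases after the gene start (assembly GRCm38.p6) were searched on both strands for the C/EBP-ATF response element (CARE, searched as TGATGNAA), the ER stress response element (ERSE, with a spacer of 9 bases), the cAMP response element (CRE, TGACGTCA) and the unfolded protein response element (UPRE, TGACGTGG), which share letters in part. All 10 genes matched a window. A CARE was found in 4 of the 10 genes, Atf3, Trib3, Asns and Chac1, against 3.97% of 32851 windows of 300 bases. An ERSE was found in Hspa5 alone among the 10, against 0.119% of all windows, and CRE (1.79% of all windows) and UPRE (0.676%) were found in none. The stretches that hold the matches before the gene start are shown 5′ to 3′ on the strand of the gene, with the match in capitals; in Atf3 and Chac1 the CARE lies on the opposite strand.
Asns: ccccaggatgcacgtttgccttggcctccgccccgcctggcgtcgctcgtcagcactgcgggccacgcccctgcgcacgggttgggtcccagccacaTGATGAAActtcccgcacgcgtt
Atf3: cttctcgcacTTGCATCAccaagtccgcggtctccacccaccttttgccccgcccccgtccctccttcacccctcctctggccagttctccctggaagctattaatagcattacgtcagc
Chac1: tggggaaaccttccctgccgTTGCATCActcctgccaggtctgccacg
Hspa5: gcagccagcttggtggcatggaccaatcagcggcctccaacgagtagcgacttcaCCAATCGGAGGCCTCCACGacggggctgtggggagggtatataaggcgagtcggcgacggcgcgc

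These stretches are chr6:7693210-7693329 on the minus strand for Asns, chr1:191183334-191183453 on the minus strand for Atf3, chr2:119351029-119351076 on the plus strand for Chac1 and chr2:34771970-34772089 on the plus strand for Hspa5. Counted from the gene start, the CARE of Asns spans positions -23 to -16, that of Atf3 -110 to -103 and that of Chac1 -193 to -186, and the ERSE of Hspa5 spans -65 to -47. The CARE of Trib3 lies after the gene start, at positions 15 to 22, and is not shown. A match describes these letters and is not evidence of binding in these cells. The lack of a match does not show that a gene lacks the element. Variants that differ in a base, and bases outside the window, were not searched.

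The 40kb libraries were compared with the WT libraries of their set to see whether the allele went with a change in the stress response. One of the 10 genes passed the test: Atf3 was 4.76-fold lower in the 40kb libraries. The other 9 did not pass, neither Atf4 nor the amino acid genes it is known to induce nor the ER genes Hspa5 and Xbp1. With edgeR's quasi-likelihood test, 1070 of 16636 genes (6.43%; 0.763% higher and 5.67% lower) passed in this comparison, so 1 of 10 is near the background share. Of the 10 genes 8 had a log2 fold change above 0, as did 56.2% of all genes, and their median was 0.34 against 0.06 over all genes. By clone against WT, 8 were above 0 in clone 1 (median 0.60) and 5 in clone 2 (median -0.05), where 52.8% and 53.4% of all genes were.

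Atf4, the central transcription factor of the response, varied little. It was at 193 and 205 CPM in the WT libraries of the 40kb set, at 194 and 255 CPM in 40kb clone 1 and at 194 and 245 CPM in 40kb clone 2. The lower replicate of each clone lay between both WT libraries and the higher one above them, and its change of 0.16 on the log2 scale had a 95% interval of -0.23 to 0.55 (SE 0.18; adjusted p = 0.631, edgeR).

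Ddit3, which encodes the pro-apoptotic factor CHOP, was at 4.95 and 6.40 CPM in WT, at 16.7 and 8.28 CPM in 40kb clone 1 and at 5.15 and 7.22 CPM in 40kb clone 2. Clone 1 was above WT in both replicates, and clone 2 overlapped WT. The log2 fold change of 0.72 had an interval of -0.62 to 2.06 (SE 0.62, adjusted p = 0.509, edgeR).

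Trib3, a pseudokinase that ATF4 and CHOP induce and that feeds back on ATF4, was at 10.7 and 16.2 CPM in WT. It was at 25.3 and 28.5 CPM in 40kb clone 1 and at 17.0 and 22.4 CPM in 40kb clone 2. All 4 edited libraries were thus above both WT libraries, but the log2 fold change of 0.79 (SE 0.39, interval -0.06 to 1.65) did not pass (adjusted p = 0.246, edgeR). Trib3 and Xbp1 were the 2 genes of the 10 with every 40kb library above both WT libraries, which also held for 16.4% of all genes; Atf3 was the gene with every 40kb library below, which held for 19.7% of all genes (36.2% in either direction).

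Asns, the asparagine synthetase, and Psat1 and Phgdh, enzymes of serine synthesis, went in different directions in the 40kb clones. Asns was at 237 and 201 CPM in WT, at 489 and 363 CPM in clone 1 and at 119.5 and 119.3 CPM in clone 2. Psat1 followed with 285 and 247 CPM in WT, with clone 1 at 532 and 455 CPM and clone 2 at 199.9 and 182 CPM. For both genes clone 1 lay above WT and clone 2 below it, in every library.

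The allele as a whole therefore gave small differences with wide intervals for the amino acid genes. The log2 fold change was 0.32 for Asns (SE 0.54, interval -0.86 to 1.49) and 0.37 for Psat1 (SE 0.44, interval -0.58 to 1.31), with adjusted p = 0.758 and 0.647 in edgeR. Phgdh was at 122 and 127 CPM in WT and at 145 and 147 CPM in clone 1, whereas clone 2 had 118 and 95.3 CPM, which gave 0.02 on the log2 scale (SE 0.21; adjusted p in edgeR 0.969). Its clones also lay on either side of WT. Chac1, which degrades glutathione and is a late target of the ATF4 and CHOP arm, was at 3.16 and 10.1 CPM in WT and between 6.93 and 11 CPM in the 40kb libraries, and its log2 fold change of 0.55 carried the widest interval of the 10 genes in this comparison, -0.97 to 2.07 (adjusted p = 0.67, edgeR).

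The ER genes did not pass either. Hspa5, which encodes the ER chaperone BiP, was at 489 and 529 CPM in WT, at 486 and 434 CPM in 40kb clone 1 and at 489.6 and 337 CPM in 40kb clone 2 (log2 fold change -0.22, SE 0.37, adjusted p = 0.751, edgeR). Xbp1, the messenger that IRE1 splices, was at 52.7 and 48.3 CPM in WT, at 75.8 and 72 CPM in clone 1 and in clone 2 at 74.4 and 61.3 CPM. Every edited library was higher, by 0.49 on the log2 scale (SE 0.30, interval -0.17 to 1.15, adjusted p = 0.349, edgeR). Against the WT libraries of the 70kb set, where Xbp1 was at 69.9 and 97.7 CPM, the direction turned and the log2 fold change was -0.24.

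**Figure D1:**
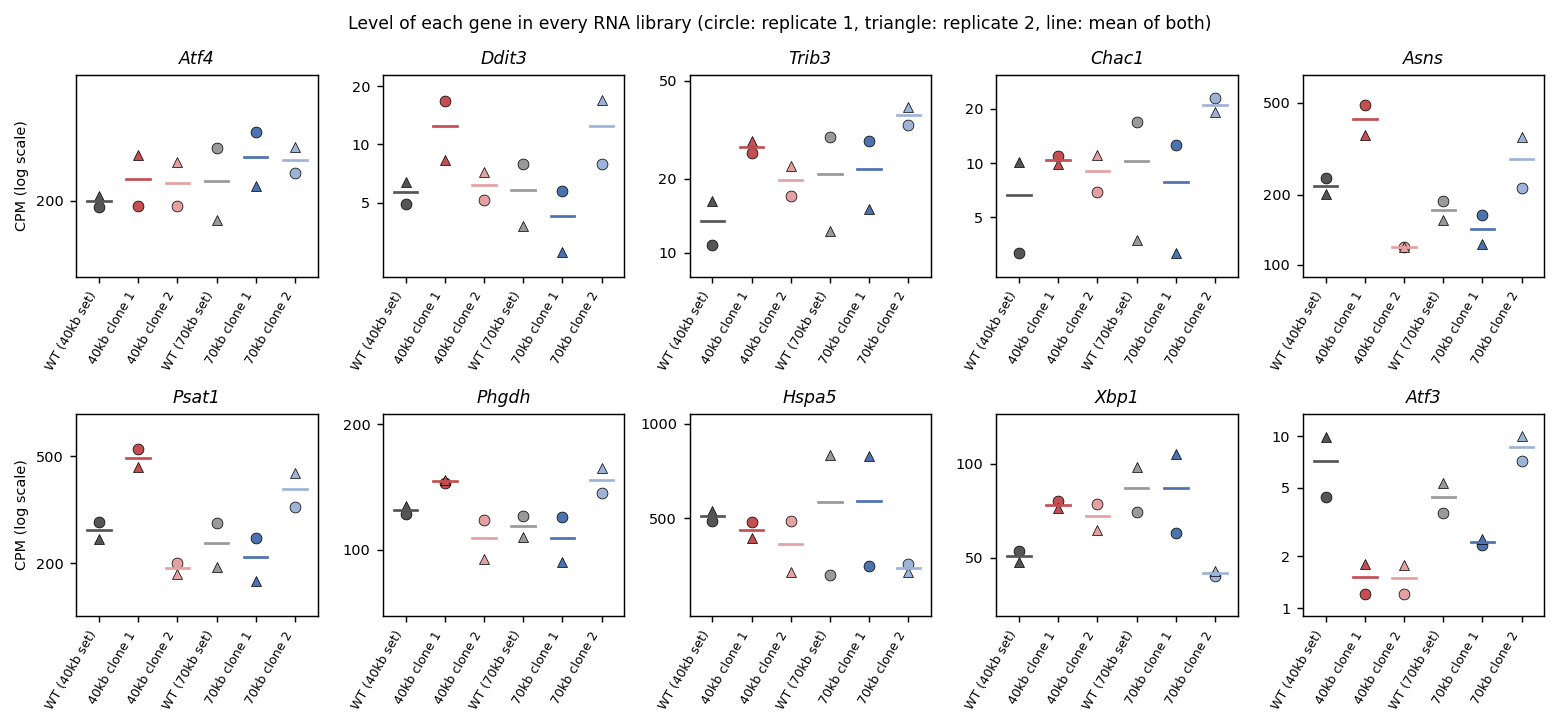
Level of each of the 10 genes in the 12 RNA libraries, in CPM on a log axis, by WT set and clone; circles are replicate 1, triangles replicate 2 and lines the mean of both. Atf3 is lowest in the 4 libraries of the 40kb clones, Asns and Psat1 part the 40kb clones, and Hspa5 and Chac1 part the replicates of the WT of the 70kb set and of 70kb clone 1.

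Atf3, a stress-induced and immediate-early transcription factor of the ATF/CREB family, fell in both 40kb clones. Its levels were 4.42 and 9.92 CPM (193 and 392 counts) in WT, 1.21 and 1.82 CPM (53 and 67 counts) in clone 1 and 1.21 and 1.79 CPM (49 and 64 counts) in clone 2. The 4 edited libraries lay close together and all below both WT libraries, which themselves differed 2.23-fold. The mean was 7.17 ± 3.89 CPM (SD, n = 2) in WT and 1.51 ± 0.342 CPM (SD, n = 4) in the edited libraries, a log2 fold change of -2.25 (SE 0.53, interval -3.39 to -1.11, adjusted p = 0.0296, edgeR). Each clone alone was below WT by a like amount, -2.24 in clone 1 (adjusted p = 0.00924) and -2.26 in clone 2 (adjusted p = 0.027) in the edgeR fit with a mean per clone.

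The call of Atf3 was lost without WT replicate 1 (-2.72, adjusted p = 0.0747), WT replicate 2 (-1.55, 0.372), replicate 1 (-2.17, 0.067) or replicate 2 (-2.35, 0.0629) of clone 1, or replicate 1 of clone 2 (-2.16, 0.0693), all in edgeR. Summing the counts of each clone (-2.28, adjusted p = 0.0762) also ended it, as did testing against the WT libraries of the 70kb set (-1.56, 0.26) and blocking on the code in the column names (-1.88, 0.168), which WT replicate 1 shares with clone 1 replicate 2 and WT replicate 2 with clone 2 replicate 2, while its direction stayed in each of 17 alternatives, between -2.72 and -1.55. Replicate 1 of each 40kb clone shares its code with no other library. With the code block these libraries add nothing to the 40kb effect, which then rests on replicate 2 of each clone. DESeq2 called Atf3 (-2.27, adjusted p = 0.00115) among 1844 genes (9.89%).

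**Figure D2:**
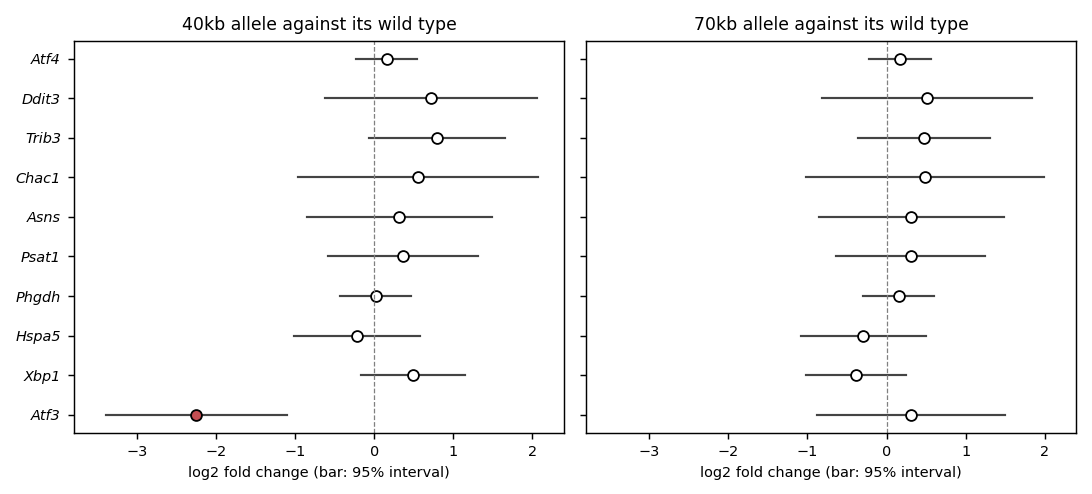
Log2 fold change of each gene (points) with its 95% interval (bars) for the 40kb allele and for the 70kb allele, each against the WT libraries of its own set; a filled point passed the edgeR test. Atf3 in the 40kb comparison, at -2.25, is the filled point, and the intervals of the other genes reach across 0 in both comparisons.

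The fall of Atf3 moved together with markers of fibroblasts, smooth muscle and trophoblast. In the 40kb comparison 10 of the 15 tested fibroblast and smooth muscle markers and 6 of the 10 tested trophoblast markers were called lower (edgeR), where 5.67% of all genes were, with Tagln at 160.3 and 238 CPM in WT against 0.891 to 26.7 CPM and Krt8 at 198 and 287 CPM against 3.75 to 20.3 CPM. Among their defining genes, Col3a1, Dcn, Lum, Postn, Cdx2, Gata3, Elf5 and Plac1 were at 0 in 1 to 3 of the 4 edited libraries and in no WT library of that set. Lum, Elf5 and Plac1 were near the floor in that WT too, at 0.0229 to 0.127 CPM, and were not tested. In the WT of the 70kb set Lum was at 0 in 2 libraries and Postn and Plac1 in 1 each. Some markers went the other way in the 40kb comparison without passing. These were Thy1 (0.50) and Pdgfra (0.17) of the fibroblast and smooth muscle list and Ascl2 (0.58) and Tfap2a (0.15) of the trophoblast list. Of 8 primitive endoderm markers 1, Dab2, was called lower, and of 10 naive ES cell markers 1, Fgf4, was called higher. Over the 12 libraries the log2 level of Atf3 went with the summed marker level at a Pearson correlation of 0.94 (Spearman 0.97), and over the 8 libraries without the 40kb clones at 0.84 (Spearman 0.90). These correlations are descriptions of libraries that share lines and sets. The sum is weighted to abundant genes. In the WT of the 40kb set Krt8, Tagln and Krt18 (174 to 214 CPM) made up most of it, whereas Cdx2 was at 0.733 to 2.3 CPM. For the other 9 genes the Pearson correlation with the markers over 12 libraries lay between -0.37 (Xbp1) and 0.17 (Hspa5). In bulk RNA, fewer cells of a type and less RNA per cell cannot be told apart, and the part of these markers in the fall of Atf3 was not tested.

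**Figure D3:**
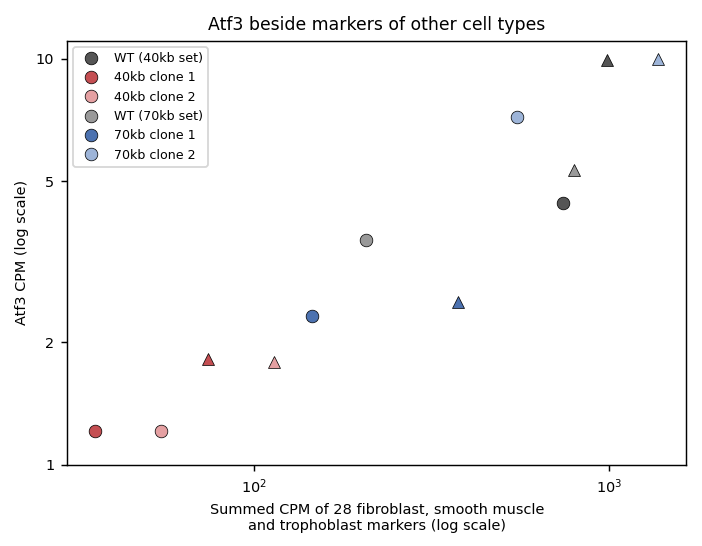
Atf3 level against the summed level of 28 fibroblast, smooth muscle and trophoblast markers in the 12 libraries, both in CPM on log axes; colours are the WT sets and clones, circles replicate 1 and triangles replicate 2. The 40kb libraries sit at the lower left, below 2 CPM of Atf3, and 70kb clone 2 replicate 2 and WT replicate 2 of the 40kb set at the upper right, near 10 CPM.

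The genes whose levels followed Atf3 most closely over the 12 libraries were Clcn5 (Pearson 0.970), Arsb (0.965), Dsc2 (0.964), Btn1a1 (0.963) and Inhba (0.963). Each was lower in the 40kb libraries, with fitted log2 fold changes from -1.69 (Clcn5) to -4.94 (Inhba). They were picked for their likeness to Atf3 over these same libraries, where Atf3 was lowest in the 40kb ones. Their direction thus follows from the choice and is no separate result. Of the 10 stress genes none came near this likeness to Atf3; its highest correlation with any of them was 0.25, with Phgdh.

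The 70kb libraries were compared with the WT libraries of that set in the same way. None of the 10 genes passed, at adjusted or unadjusted p, and no gene of the 16636 tested did (0% called, edgeR; 100 at an unadjusted p under 0.05; 3, or 0.0118%, with DESeq2, none of them among the 10). Fold changes ranged from -0.39 for Xbp1 to 0.51 for Ddit3 on the log2 scale, 8 of the 10 were above 0 against 51.4% of all genes, and their median was 0.31 against 0.00456 over all genes. The clones differed in this. Against WT, 3 of the 10 were above 0 in clone 1 (median -0.14) and 8 in clone 2 (median 0.70), where 49.2% and 48.5% of all genes were. In no gene of the 10 did the 70kb libraries clear both WT libraries, against 5.48% of all genes (2.4% higher and 3.08% lower).

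Atf3 was at 3.58 and 5.33 CPM in these WT libraries, at 2.33 and 2.52 CPM in 70kb clone 1 and at 7.20 and 9.98 CPM in 70kb clone 2. Clone 1 lay below WT and clone 2 above it, and the log2 fold change of the allele was 0.31 (SE 0.55, interval -0.88 to 1.49, adjusted p = 1, edgeR). Without replicate 2 of clone 2 it was -0.15.

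Atf4 was at 263 and 181 CPM in WT, at 288 and 216 CPM in clone 1 and at 231 and 265 CPM in clone 2, so that the groups overlapped (log2 fold change 0.17, SE 0.18, interval -0.22 to 0.56, edgeR). Trib3 was at 29.5 and 12.3 CPM in WT, at 28.6 and 15.1 CPM in clone 1 and at 33.1 and 39.3 CPM in clone 2. Clone 1 lay within the range of WT and clone 2 above it. The interval of the log2 fold change of Trib3 was -0.37 to 1.31 (0.47, SE 0.39), and without WT replicate 2 the value was -0.02.

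Ddit3 was at 7.92 and 3.77 CPM in WT and at 5.71 and 2.79 CPM in clone 1, whereas clone 2 had 7.90 and 17.0 CPM. Clone 1 overlapped WT, and of clone 2 replicate 2 alone stood above it. Asns was at 187 and 156 CPM in WT, at 163 and 122 CPM in clone 1 and at 213 and 356 CPM in clone 2. Psat1 was at 282 and 194 CPM in WT, while clone 1 had 249 and 171 CPM and clone 2 had 323 and 434 CPM. In Asns and Psat1 both libraries of clone 2 exceeded both WT libraries. Phgdh had 120.3 and 107 CPM in WT, 119.7 and 93.5 CPM in clone 1, and with 137 and 157 CPM clone 2 was again highest.

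Hspa5 and Chac1 parted the replicates instead. Hspa5 was at 329 CPM in WT replicate 1 and 352 CPM in replicate 1 of clone 1, but at 796 CPM in WT replicate 2 and 786 CPM in replicate 2 of clone 1, while clone 2 had 358 and 337 CPM. Chac1 was at 16.9 and 12.6 CPM in the same first replicates, at 3.77 and 3.17 CPM in the second ones and at 22.9 and 19.3 CPM in clone 2. Where Hspa5 was high Chac1 was low. Without WT replicate 2 the 70kb log2 fold change of Hspa5 turned from -0.30 to 0.48 and that of Chac1 from 0.49 to -0.22.

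The effects of the alleles were set against each other in an interaction contrast. Atf3 gave the largest difference of the 10 genes, with a 40kb effect minus 70kb effect of -2.56 on the log2 scale (SE 0.78, interval -4.26 to -0.86). It had an unadjusted p of 0.00636 but did not pass after adjustment (adjusted p = 0.205, edgeR; range 0.0354 to 0.799 over the alternatives). No gene of the 16636 passed in edgeR (0% called, 2128 at an unadjusted p under 0.05), whereas DESeq2 called 448 genes (2.76%), Atf3 among them (adjusted p = 0.0354). Xbp1 came next, 0.88 higher (SE 0.42, interval -0.04 to 1.79, adjusted p = 0.416, edgeR). For Asns the 2 effects were 0.32 and 0.31, a difference of 0.00213 with an interval of -1.64 to 1.64, so that the data leave room for large differences either way.

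Both sets of WT libraries are labelled with the same genotype and line, and they were compared with each other. The count table names them differently, E14 in the 40kb set and E14.2 in the 70kb set, and whether these are separate stocks or sublines is not stated in the labels. None of the 10 passed (0% of all genes called in edgeR, 394 at an unadjusted p under 0.05, none with DESeq2). Xbp1 was higher in both WT libraries of the 70kb set, by 0.73 on the log2 scale (SE 0.35), and Asns (-0.35) and Phgdh (-0.13) were lower in both, where 40.2% of all genes showed no overlap in either direction (21.2% higher and 19% lower). The difference of Xbp1 between the WT sets was thus larger, as a fitted value, than its 40kb effect of 0.49.

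The clones of an allele were then compared with each other. In the fit with a mean per clone, Asns was 3.57-fold higher in 40kb clone 1 than in clone 2 and was 1 of 11 genes called of 16636 (0.0661%; 0.018% higher and 0.0481% lower). DESeq2 called 555 genes (3.87%), Asns and Psat1 of the 10. All 10 genes had a value above 0, against 50.1% of all genes, with a median of 0.33 against 0.000967.

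Asns had 426 ± 89.8 CPM (SD, n = 2) in 40kb clone 1 and 119 ± 0.188 CPM (SD, n = 2) in clone 2, a log2 difference of 1.83 (SE 0.25, interval 1.29 to 2.38, adjusted p = 0.0334, edgeR). Psat1 came next with 493 ± 55.1 CPM and 191 ± 12.3 CPM (n = 2 each), a log2 difference of 1.37 (SE 0.23, interval 0.86 to 1.88) that just missed the threshold (adjusted p = 0.0585, edgeR). Both replicates of clone 1 exceeded both of clone 2 also in Phgdh (0.45, SE 0.16), Ddit3 (1.01, SE 0.50) and Trib3 (0.45, SE 0.39), so that 5 of the 10 genes were higher without overlap, as were 21.9% of all genes (23.4% were lower and 45.3% either). Atf4 (0.03, interval -0.45 to 0.51) and Atf3 (0.01, interval -0.92 to 0.95) gave values near 0. The call of Asns was lost without replicate 1 of clone 1 (1.6, adjusted p = 0.243) and without replicate 1 (1.84, 0.288) or 2 (1.83, 0.23) of clone 2, while without replicate 2 of clone 1 the value was 2.04 and 2907 genes were called in place of 11. With 1 library left in a clone, that library is assumed to vary like the others.

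Against WT, 40kb clone 1 had 3 of the 10 genes called, where 14.9% of all genes were (4.72% higher and 10.2% lower). Atf3 was lower, and Asns was 1.95-fold (log2 0.96, SE 0.24, adjusted p = 0.0259, edgeR) and Psat1 1.86-fold higher (log2 0.89, SE 0.23, adjusted p = 0.0267). In 40kb clone 2, where 3.19% of all genes were called (0.613% higher and 2.57% lower), Atf3 was the gene of the 10 that passed, and Asns was lower by 0.88 on the log2 scale without passing (SE 0.24, adjusted p = 0.0764, edgeR). The difference between the clones, tested above, therefore came from both sides of WT.

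Between the 70kb clones most of the 10 genes were higher in clone 2. Clone numbers are labels within an allele and do not match the clones of one allele to those of the other. Clone 2 exceeded clone 1 in both replicates in 7 genes, against 20.4% of all genes, and Xbp1 was higher in clone 1, against 20.8% (41.1% in either direction). On the log2 scale clone 1 was lower than clone 2 in Atf3 (-1.82, SE 0.41), Ddit3 (-1.55, SE 0.51), Chac1 (-1.42, SE 0.73), Asns (-1.0, SE 0.24), Psat1 (-0.85, SE 0.23), Trib3 (-0.73, SE 0.39) and Phgdh (-0.46, SE 0.16), and higher in Xbp1 (0.91, SE 0.25). With edgeR 0 of the 10 passed (6 at an unadjusted p under 0.05), where 2 of 16636 genes (0.012%; 0.00601% in each direction) did.

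With the replicate number as a block 240 genes (1.44%) were called, Atf3 among them (-1.81, adjusted p = 0.0129, edgeR). Same-numbered libraries of the 70kb clones deviated together only weakly, at a correlation of 0.205, which was also the value between the 40kb clones. DESeq2 called 176 genes (1.08%), with Atf3 (-1.83, adjusted p = 0.00355) and Asns (-1.01, adjusted p = 0.0184) from the 10. The marker sum was 146 and 376 CPM in clone 1 against 551 and 1376 CPM in clone 2, and its part in the difference of Atf3 was not tested. Against WT, 1 gene of all passed in 70kb clone 1 (0.00601%, all of it lower) and 0 in clone 2, with 0 of the 10 in either (edgeR). At an unadjusted p under 0.05 were 271 of 16636 genes in clone 1 and 597 in clone 2. Of the 10 genes 0 and 5 were under it. Clone 2 minus WT was 0.95 on the log2 scale for Atf3, 1.09 for Ddit3, 1.03 for Chac1 and -0.91 for Xbp1. Atf4 was at 252 ± 50.7 CPM in clone 1 and 248 ± 23.6 CPM in clone 2 (SD, n = 2 each), a log2 difference of 0.02 with an interval of -0.46 to 0.50.

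**Figure D4:**
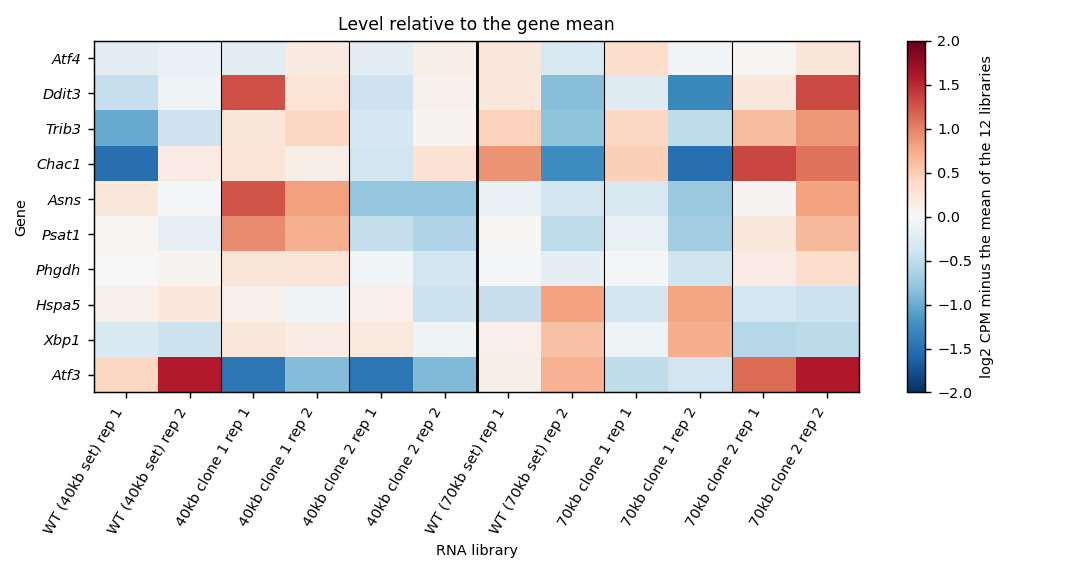
Log2 CPM of the 10 genes in each of the 12 libraries minus the mean of the gene over all libraries; the scale runs from -2 (blue) to 2 (red), thin lines part the WT sets and clones and the thick line parts the 40kb set from the 70kb set. Asns, Psat1 and Phgdh share a pattern with 40kb clone 1 and 70kb clone 2 high, Trib3 and Chac1 share another, and Hspa5 and Xbp1 are high in the second replicates of the WT of the 70kb set and of 70kb clone 1.

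Across the 12 libraries the 10 genes fell into groups by level. These correlations are given as descriptions, since libraries share lines, clones and sets. Asns went with Psat1 at a Pearson correlation of 0.97 and with Phgdh at 0.87, and Psat1 with Phgdh at 0.92. Trib3 went with Chac1 at 0.91 and with Atf4 at 0.78, while Atf4 went with Asns at 0.07. Hspa5 ran against Chac1 (-0.83), Trib3 (-0.77) and Atf4 (-0.75) and with Xbp1 (0.69). After removal of each WT set's or clone's mean, which leaves the difference between replicates, Hspa5 and Xbp1 were at 0.94, Trib3 and Chac1 at 0.95 and Hspa5 and Trib3 at -0.91.

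Psat1 was the gene most like Asns among all those tested (0.972), ahead of Clca3a2 (0.944), BX649560.1 (0.937), Tmem260 (0.936) and Fgg (0.930). The genes most like Hspa5 were the ER protein folding genes Pdia6 (0.965), Manf (0.946), Hsp90b1 (0.941) and Pdia3 (0.928), followed by Polr1e (0.919), which encodes an RNA polymerase I subunit. Pdia6 and Pdia3 encode disulfide isomerases and Hsp90b1 the ER form of HSP90.

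The WT libraries of the 70kb set and 70kb clone 1 shared a difference between replicates that 70kb clone 2 did not show. Replicate 2 exceeded replicate 1 in Hspa5 by 1.27 and 1.16 on the log2 scale in the first 2 pairs and was at -0.09 in clone 2. For Xbp1 the values were 0.48 and 0.83 against 0.05. In the other direction Chac1 gave -2.15 and -1.98 against -0.25, Trib3 -1.26 and -0.92 against 0.25 and Ddit3 -1.06 and -1.02 against 1.10. In those 2 pairs the ER genes thus differed one way and Chac1, Trib3 and Ddit3 the other. Ddit3 in 40kb clone 1 (-1.0) and Chac1 in the WT of the 40kb set (1.66) also differed between replicates. Each pair is 1 library against 1 library, so there is no test of it.

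The wider lists moved alike between these replicates. Of 22 genes for ER chaperones and ER-associated degradation, 20 were higher in replicate 2 of WT and 19 in replicate 2 of 70kb clone 1, with medians of 0.41 and 0.40, against 7 of 22 and a median of -0.08 in clone 2. Of 12 aminoacyl-tRNA synthetase genes, 1 was higher in replicate 2 of WT and 1 in replicate 2 of clone 1 (medians -0.50 and -0.40), against 10 in clone 2 (median 0.17). Of 11 genes for serine, one-carbon and proline synthesis the counts were 0, 1 and 8. Over 13087 genes with a mean of at least 1 CPM, the share higher in replicate 2 was 50.2%, 53.0% and 49.8%.

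**Figure D5:**
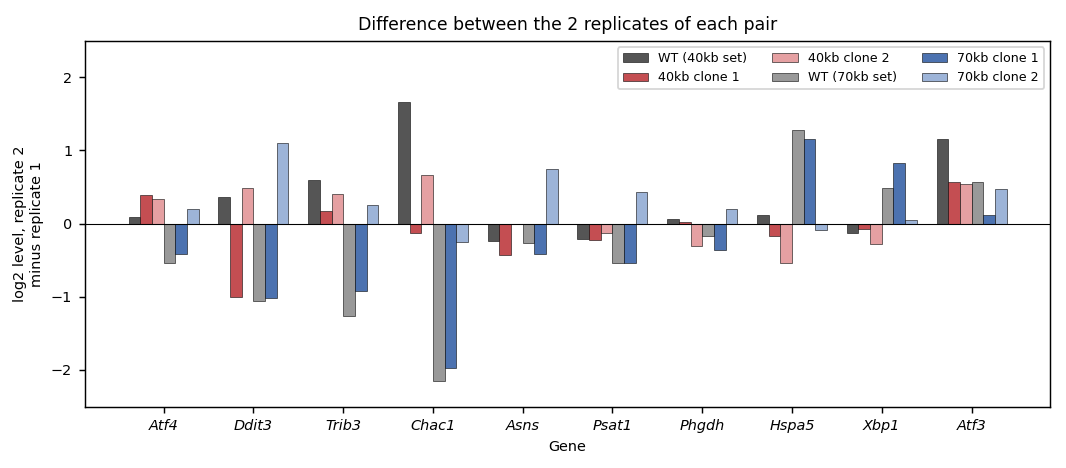
Difference in log2 level between replicate 2 and replicate 1 for each gene in each of the 6 pairs of libraries; a bar above 0 means that replicate 2 was higher. The WT of the 70kb set and 70kb clone 1 (light grey and dark blue) have tall bars of like size in Chac1, Trib3, Ddit3 and Hspa5, and 70kb clone 2 does not follow them.

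The genes differed in how steady they were. The SD between replicates on the log2 scale was 0.99 for Chac1, a spread that 0.688% of 13087 genes exceeded, and 0.63 for Ddit3, which 4.02% exceeded. Atf4 (0.25, exceeded by 40.3%) and Phgdh (0.16, exceeded by 73.2%) lay near or below the median gene, at 0.22. From the lowest to the highest of the 12 libraries Atf3 spanned 8.24-fold, Chac1 7.24-fold, Ddit3 6.09-fold and Asns 4.10-fold, against 1.68-fold for Phgdh and 1.59-fold for Atf4. By this range Atf3, Chac1 and Ddit3 were the widest of the 10, while by the SD between replicates Hspa5 (0.53) and Trib3 (0.50) were above Atf3 (0.46). Chac1 had the widest interval of an allele effect in both comparisons.

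The other genes of the pathway were described through 10 lists with 129 genes, 128 of which were tested. In the 40kb comparison 3 of the 128 were called, all lower and all in the list of 14 immediate-early genes, where 6.43% of all genes were called and 5.67% were lower, so the lists together held no larger share of calls than all genes. In the 70kb comparison, in the interaction, between the WT sets and between the clones of an allele none was (edgeR). The median log2 fold change over the 128 genes was 0.09 for 40kb and 0.02 for 70kb, against 0.06 and 0.00456 over all genes.

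The called genes were AP-1 subunits, the family whose proteins pair with ATF3. Fosl2 was at 17.4 and 18.6 CPM in WT and at 1.07, 2.63, 2.4 and 3.27 CPM in the 40kb libraries (log2 fold change -2.94, SE 0.64, adjusted p = 0.0245, edgeR). Fos was at 31.1 and 36.1 CPM in WT and at 7.81, 10.9, 7.42 and 11 CPM in the 40kb libraries (-1.86, SE 0.40, adjusted p = 0.0239). Jun was at 21.1 and 26.0 CPM in WT and at 4.36, 8.33, 8.07 and 7.55 CPM (-1.73, SE 0.39, adjusted p = 0.0265). All 4 edited libraries were below WT in each of the 3 genes.

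As a list, 12 of the 14 immediate-early genes were below 0, with a median of -0.54. The summed fibroblast, smooth muscle and trophoblast markers were lower in the same libraries, and their part was not tested. With edgeR 0 of the 14 were called without WT replicate 1 or 2, without replicate 1 or 2 of clone 1 or without replicate 1 of clone 2. In the 70kb libraries the median of the list was -0.00584. Fosl2 was at 3.62 and 6.53 CPM in 70kb clone 1 and at 14 and 26.7 CPM in clone 2, with the clones in the same order as Atf3.

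The lists of ATF4 targets for amino acid metabolism were described beside Asns and Psat1. All 12 synthetase genes and all 11 genes for serine, one-carbon and proline synthesis were above 0 in the 40kb comparison, with medians of 0.35 and 0.22, and none was called. In the 70kb comparison 12 of 12 and 9 of 11 were above 0, with medians of 0.20 and 0.23. By clone against WT, the counts were 11 and 11 in 40kb clone 1 (medians 0.56 and 0.56). In 40kb clone 2 they were 7 and 5 (medians 0.02 and -0.04). In 40kb clone 1 against WT, 8 of the 128 genes were called higher and 7 lower, where 14.9% of all genes were called (4.72% higher and 10.2% lower). The immediate-early genes Fos, Fosb, Fosl2, Jun, Junb and Egr2 were among those lower, with log2 fold changes from -0.96 (Junb) to -3.55 (Fosb). Nars, Tars and Lars of the synthetases, Slc1a5 and Slc7a3 of 11 amino acid transporters and Psph of the serine list were called higher (edgeR), by 0.77 to 1.30 on the log2 scale; the genes called in this clone are named after their values were seen. The mitochondrial protease subunit gene Clpp (0.71), the stress regulator Nupr1 (2.44) and, lower, Batf3 (-2.37) were called there too, and in 40kb clone 2 Fosl2 (-2.67) was the gene of the 128 called. Between the 40kb clones the medians were 0.65 for the synthetases and 0.91 for the serine list, with no call (smallest adjusted p 0.0641 and 0.0593), and between the 70kb clones -0.36 and -0.48.

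The upstream and ER lists held no called gene in either allele comparison. The 17 genes for the eIF2 kinases, their phosphatase arms and the subunits of eIF2 and eIF2B had medians of 0.10 for 40kb and -1.67e-05 for 70kb. Of these 17, 14 were above 0 for 40kb and 8 for 70kb. The 9 sensors and regulators of the unfolded protein response had medians of -0.13 and -0.00931, with 4 above 0 in each comparison. Over all genes the medians were 0.06 and 0.00456, and 56.2% were above 0 for 40kb. Of the 22 ER chaperone and degradation genes 9 were above 0 in the 40kb comparison (median -0.06) and 0 in the 70kb comparison (median -0.10), from -0.25 for Hyou1 to -0.01 for Pdia3. No gene of any kind was called in the 70kb comparison, and 51.4% of all genes were above 0 there. The replicates of the WT of the 70kb set differed by a median of 0.41 in the same 22 genes, and the part of that difference was not tested. The 8 mitochondrial stress genes were all above 0 in the 40kb comparison (median 0.30, no call, smallest adjusted p 0.0541, edgeR).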

How the data were processed

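The authors deposited a table of whole-number counts per gene. Per the submitters' processing notes, the tools include STAR and edgeR and the build mm9. Libraries came from a stranded mRNA kit, per the labels' protocols. Which strand was counted is not stated in the sources used here, so reads of a gene and an overlapping antisense gene cannot be told apart. Of 37310 genes, 32620 matched a symbol.

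The count table was analysed in edgeR 4.0.16 (R 4.3.3) with TMM factors and the default low-count filter, which left 16636 genes. A quasi-likelihood F test was run on a joint model of all 12 libraries, with group means (8 residual degrees of freedom) or clone means (6), and p-values were adjusted over all genes by Benjamini-Hochberg at 0.05. The biological coefficient of variation was 23.8%. SE is that of a log2 fold change, with a 95% interval from the t distribution. Correlations used log2 CPM with a prior count of 2. The fit was also run on simulated libraries drawn independently, without clone or set differences. That run does not show how the test behaves where libraries share clones, sets or codes. Alternatives were DESeq2 1.42.0, other scalings, filters, blocks, WT libraries, counts summed per clone and each library left out.

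In the 70kb set the deviations of same-numbered libraries from their pair means were correlated over 9043 genes. The correlation was 0.898 between WT and clone 1, 0.249 between WT and clone 2 and 0.205 between the clones, all over 0.1. The pairing was thus strong for WT and clone 1 and weak where clone 2 entered. It comes from this check and from the column names, in which same-numbered libraries share a code (B13 or B14). The labels do not give the meaning of that code. The 70kb tests and intervals above take no account of this pairing unless a block is named. Contrasts of a single clone with WT were not run with a block.

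The 10 genes and the lists were chosen with earlier results of these data known. Named besides them are up to 3 called genes per list in an allele comparison, the 5 genes most correlated with Atf3, Asns and Hspa5 (predicted genes and pseudogenes left out), Xist, and markers on which a result turns.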

Additional observations from a re-analysis of the deposited data

Results flagged for a closer look

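Hspa5 in replicate 2 of 70kb clone 1 stood apart from the other libraries of its allele. Its level was 786 CPM, while the other 3 libraries of the 70kb allele had 337 to 358 CPM. The gap to the nearest library took up 0.952 of the range, above Dixon's 95% critical value for 4 samples. Replicate 2 of the WT of the 70kb set, which carries the same replicate number, was at 796 CPM. The test was made for 20 sets of 4 libraries, and chance passes about 1 in 20 of such sets.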

How the results depend on the processing

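All values here are edgeR values unless DESeq2 is named, log2 values for genes and numbers of called genes for counts, and the cause of each change was not tested unless fewer libraries stand behind it. For the 40kb allele, the count of 1070 genes became 357 with a block on the library code, 3 with counts summed per clone, 0 against the WT libraries of the 70kb set and 1844 with DESeq2, and ran from 0 to 1099 with 1 library left out. It was 0 without either WT library of the 40kb set, 527 without replicate 1 of clone 1, 277 without replicate 2 of clone 1 and 279 without replicate 1 of clone 2. The 1 call among the 10 stress genes, Atf3, became 0 with the code block (-1.88, adjusted p = 0.168), 0 with counts summed per clone and 0 against the other WT libraries (0 to 1 with 1 library left out), and the 3 calls among immediate-early genes became 0, 0 and 0 under the same settings and 5 with DESeq2 (0 to 5).

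For the 70kb allele, the count of 0 genes became 1 without the low-count filter, 1 against all 4 WT libraries and 3 with DESeq2 (0 with 1 library left out). For the difference between alleles, 0 became 10 without the filter, 586 with all 4 WT libraries as 1 group (1 of the 10 stress genes, Atf3, -1.87, adjusted p = 0.0455) and 448 with DESeq2 (1 of the 10), and 0 to 1 with 1 library left out (0 of the 10).

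Between the 40kb clones, 11 genes became 380 (2 of the 10) with the replicate number as a block and 555 (2 of the 10) with DESeq2, and 1 to 2907 with 1 library left out (0 to 2 of the 10). Between the 70kb clones, 2 genes became 240 (1 of the 10) with the block and 176 (2 of the 10) with DESeq2, and 1 with 1 library left out (0 of the 10). In the 40kb set the replicate numbers did not pair WT with the clones (correlations of deviations -0.0534 for clone 1 and -0.28 for clone 2). Between the clones the correlation was 0.205, weak as between the 70kb clones. Libraries that share a code in the column names, WT replicate 1 with clone 1 replicate 2 and WT replicate 2 with clone 2 replicate 2, were at 0.437 and 0.141. Replicate 1 of each 40kb clone shares its code with no other library. The 40kb values with the code block thus rest on fewer edited libraries, replicate 2 of each clone. The replicate block gave Atf3 -2.17 (adjusted p = 0.0241) among 1447 genes for the 40kb allele, added Psat1 between the 40kb clones (1.37, adjusted p = 0.0219) and changed no other call among the 10 genes than those given here.

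Directions that turned belonged to values that had not passed. In the 40kb comparison Phgdh (0.02) became -0.00705 with a mean of at least 50 counts, -0.0731 with the code block, -0.00918 with the libraries of its own set alone and -0.00152 with DESeq2, Asns (0.32) -0.0678 with the code block, and Chac1 (0.55) -0.0909 and Xbp1 (0.49) -0.24 against the other WT libraries. With 1 library left out, Phgdh ran from -0.0645 to 0.13, Asns from -0.14 to 0.56 and Chac1 from -0.0610 to 1.61. In the 70kb comparison Atf3 (0.31) became -0.38, Asns (0.31) -0.0358 and Xbp1 (-0.39) 0.34 against the other WT libraries, and Atf3 -0.0757 against all 4. With 1 library left out, the 70kb values ran from -0.15 to 0.62 for Atf3, from -0.0752 to 0.47 for Atf4, from -0.0973 to 1.15 for Ddit3, from -0.0246 to 1.24 for Trib3, from -0.0489 to 0.51 for Asns, from -0.22 to 1.94 for Chac1 and from -0.80 to 0.48 for Hspa5. Among the single-gene results, 465 alternative values kept direction and side of the threshold, 8 newly passed it, 11 no longer passed and 23 turned.

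Atf3 rested on 49 to 392 counts per library. With 2 WT libraries per set, every allele effect leans on each of them.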
